A study of Mus musculus with 9 samples.

Results

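Cerebellum of Sufu knockout (KO) mice was compared with wildtype cerebellum at postnatal day 13. The comparison used 6 of the series' 9 arrays, chosen by the genotype and replicate number in their titles: 3 labelled Sufu KO cerebellum and 3 labelled wildtype cerebellum. The other 3 arrays hold medulloblastoma, a cerebellar tumour, from Ptch1 KO mice of the same age. Their levels are given only where Sufu KO is set beside them. They also entered the choice of probe sets, the brightness filter and the estimate of spread behind every p-value, unless the 6 arrays alone are named. Per the labels, tissue was dissected and frozen, and total RNA from each sample was measured on an Affymetrix Mouse Gene 1.0 ST array, which reads a gene through sets of probes along its transcript. Levels are the log2 values that the authors deposited, for 19938 genes with a probe set of their own, of which 16323 were bright enough to test. The labels give the genotype only as wildtype, Sufu KO or Ptch1 KO. They name no strain, no Cre or promoter that limits the deletion to some cells, and no animal, so a p-value here reflects how far these samples varied, and part of that variation may be technical.

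Sufu encodes a protein that holds the Gli transcription factors inactive in the cytoplasm, and it is the main brake on Hedgehog signalling in vertebrate cells. In the postnatal cerebellum, Purkinje cells release Sonic hedgehog onto the granule neuron progenitors of the external granular layer. Those progenitors divide while the signal lasts, then leave the cell cycle, migrate inward past the Purkinje cells and Bergmann glia, and mature into the granule neurons of the internal layer. Without Hedgehog ligand, the receptor Ptch1 restrains the membrane protein Smo. Ligand lifts that restraint, Smo acts through the primary cilium, and Gli2 then switches on target genes such as Gli1, Ptch1 and Hhip.

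The 6 arrays were alike in overall level. Over all 9 arrays the medians differed by at most 0.0647 (log2). The correlation across genes ran from 0.969 to 0.979 between arrays of different genotype, from 0.995 to 0.996 among wildtype arrays and from 0.989 to 0.995 among Sufu KO arrays. In a principal component analysis of the 6 arrays 70.2% of the variance lay on the first component, which separated the genotypes. The second held 15.8% and spread the Sufu KO arrays, from 13.7 for replicate 1 to -16.0 for replicate 3. Markers of cerebellum were bright in wildtype: the granule neuron receptor gene Gabra6 read 11.93, 11.90 and 12.09, and Calb1, a calcium buffer of Purkinje cells, read 11.58, 11.47 and 11.64 (log2, replicates 1, 2 and 3). The groups were not matched for sex. Xist, which is transcribed from the silenced X chromosome and marks females, was high in every wildtype sample and in Sufu KO replicate 3, while Sufu KO replicates 1 and 2 carried high Y-linked genes. The high-Xist arrays alone leave 1 Sufu KO array, replicate 3, so they give no spread among Sufu KO samples. Calls were therefore not judged on those arrays. Of the called genes named below, Ddc, Dusp1, Evc, Fbxw11, Gli3, Hhip, Notch3, Nr3c1, Pagr1a, Ptbp2, Ss18l1 and Thra did not pass with a sex covariate. That covariate rests on the Sufu KO and tumour arrays, since every wildtype sample had high Xist.

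A gene was called where the limma test gave a Benjamini-Hochberg adjusted p under 0.05. By that rule 2122 genes (13% of 16323 tested) were higher in Sufu KO and 2028 (12.4%) were lower, 4150 (25.4%) in all. The percentages for each direction are the background against which every count of list members below is to be read. Over all tested genes the median difference was -0.01 (log2). An unlabelled value in brackets after a gene's name or description is a log2 difference, Sufu KO minus wildtype, and one after a left-out replicate or another setting is an adjusted p. At 1 log2 unit or more the comparison was uneven: 186 genes (1.14%) were higher and 36 (0.221%) were lower. Of the 186 genes, 59 belonged to the lists of dividing cells, which hold 125 tested genes. Lists of granule progenitors and newborn granule neurons (41 tested genes) held 10, and those of mature neurons, synapses or glia (178) held 3. Of the 36 genes, 8 belonged to lists of mature neurons and synapses (136 tested genes), 2 to glial lists (45) and 0 to lists of dividing cells (125).

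**Figure D1:**
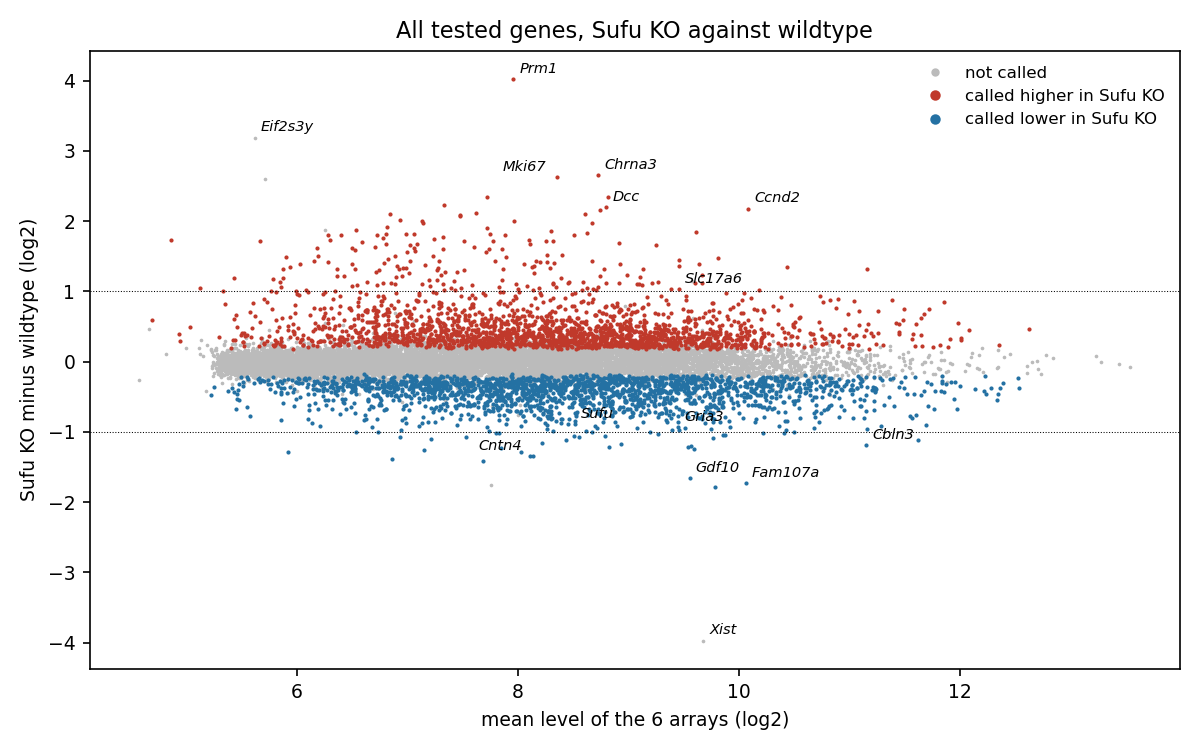
Difference between Sufu KO and wildtype (vertical axis, log2) against the mean level of the 6 arrays (horizontal axis, log2) for each of the 16323 tested genes. Points past the upper dotted line (1 log2 unit) outnumber those past the lower one, 186 called genes against 36; Xist and the Y-linked gene Eif2s3y stand far out but were not called.

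The targeted gene was lower but not lost. Sufu read 9.04, 8.82 and 9.02 in wildtype and 8.07, 8.13 and 7.99 in Sufu KO (log2, replicates 1, 2 and 3). No Sufu KO array reached the lowest wildtype array, and the difference was -0.89 ± 0.08 (SE, 95% confidence interval -1.06 to -0.73), 1.86-fold lower (limma adjusted p = 9.70e-06). Which exons were deleted is not stated, so where this probe set lies relative to the deletion is not known.

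Genes of the Hedgehog pathway were called in both directions. Of 38 listed components, 34 could be tested: 7 rose, 4 fell and 23 did not pass, and the median difference was 0.01. Over all tested genes 13% rose and 12.4% fell, so these counts are not read as a change of the pathway. The 4 that fell include Sufu itself, beside Hhip, Spop and Fbxw11. Of the 6 ligand and ligand-release genes 1 rose, Disp1, the transporter that releases lipid-modified Hedgehog from the cells that make it (0.26, adjusted p = 0.0126). The Disp1 call was lost without wildtype replicate 2 (adjusted p = 0.052) and with the mean of its probe sets (0.143). A second probe set of Disp1 differed by 0.06 (adjusted p over all probe sets = 0.779). The ligand gene Shh itself read 7.14, 7.30 and 7.17 in wildtype and 7.07, 7.03 and 6.90 in Sufu KO, a difference of -0.20 ± 0.07 (SE) that did not pass (adjusted p = 0.065).

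Among receptors, Smo, the membrane protein that passes the signal on, read 8.39, 8.24 and 8.30 in wildtype and 8.91, 8.82 and 8.90 in Sufu KO. Its arrays did not overlap, and Smo rose 1.48-fold (adjusted p = 0.00103). Ptch1, the ligand receptor, read 10.25, 10.26 and 10.28 in wildtype and 10.19, 10.16 and 10.25 in Sufu KO. Its difference of -0.07 had a 95% confidence interval of -0.23 to 0.10, so a rise as large as that of Smo lay outside the interval. Hhip, a decoy that binds the ligand, read 7.03, 7.37 and 7.24 in wildtype and 6.59, 6.87 and 6.78 in Sufu KO, and fell by 0.46 (adjusted p = 0.0326). That call did not hold with sex as a covariate (adjusted p = 0.216), without wildtype replicates 2 (0.128) or 3 (0.0874), or without Sufu KO replicates 1 (0.105) or 3 (0.0575).

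Of the transcription factors, Gli2, the main activator, read 7.32, 7.34 and 7.05 in wildtype and 8.23, 8.24 and 8.07 in Sufu KO, and rose 1.92-fold (adjusted p = 2.93e-04). Gli3, which acts mostly as a repressor, read 6.62, 6.56 and 6.48 in wildtype and 6.85, 6.84 and 6.82 in Sufu KO, a called rise of 1.22-fold (adjusted p = 0.0288). The Gli3 call was lost without any 1 of wildtype replicates 2 (adjusted p = 0.0739) and 3 (0.1) and Sufu KO replicates 1 (0.0649), 2 (0.0785) and 3 (0.0514), and it was lost with a sex covariate (0.141). Gli1, a target as well as a factor of the pathway, read 7.52, 7.29 and 7.28 in wildtype and 7.27, 7.23 and 7.23 in Sufu KO. All Sufu KO arrays lay below the wildtype arrays for Gli1, but the difference of -0.12 ± 0.12 (SE) did not pass (adjusted p = 0.537).

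Of 9 genes that modify or degrade Gli proteins 2 fell and 0 rose, where 12.4% of all tested genes fell and 13% rose. Spop, the adaptor that brings Gli proteins to a Cullin 3 ubiquitin ligase and that the series' title names beside Sufu, read 10.30, 10.15 and 10.32 in wildtype and 10.01, 9.76 and 9.91 in Sufu KO, and fell 1.28-fold (adjusted p = 0.00684). Fbxw11, a receptor subunit of an SCF ubiquitin ligase, fell by 0.35 (adjusted p = 0.0102), which did not hold without Sufu KO replicate 2 (0.0522) or with a sex covariate (0.067). The other 7 of 9 genes in this role, among them Spopl, the close relative of Spop (-0.02, adjusted p = 0.888), and the ligase scaffold gene Cul3 (0.12, adjusted p = 0.204), did not pass. Of 9 genes of protein kinase A and the primary cilium, 3 rose: Gpr161, a ciliary receptor that keeps protein kinase A active (0.52), Stk36, a relative of the Drosophila kinase Fused (0.43, adjusted p = 0.00103), and Evc, a ciliary partner of Smo (0.39, adjusted p = 0.0219). The Evc call was lost without wildtype replicates 1 (0.0778) or 3 (0.0633) or Sufu KO replicates 1 (0.079) or 2 (0.0517), and with a sex covariate (0.0877).

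The target genes were read by role. Of 13 listed targets 12 were tested; 4 rose, 3 fell and 5 did not pass. None of the 3 tested feedback genes, Gli1, Ptch1 and Hhip, was called higher, and all 3 read lower on each Sufu KO array than on any wildtype array, where 19.6% of all tested genes had that order. Among the 9 growth and survival targets, 4 rose, 2 fell and 3 did not pass. Ccnd2, a G1 cyclin of granule progenitors, read 9.15, 8.87 and 8.96 in wildtype and 11.23, 11.21 and 11.08 in Sufu KO, a rise of 4.53-fold (adjusted p = 1.67e-07). Mycn, the transcription factor that drives progenitor growth, read 7.69, 7.38 and 7.32 in wildtype and 9.19, 9.08 and 9.26 in Sufu KO, a rise of 3.28-fold (adjusted p = 1.62e-06). Both stood more than 1 log2 unit above every wildtype array. Cdk6, the kinase partner of D cyclins, read 6.92, 6.84 and 7.12 in wildtype and 8.97, 8.78 and 9.16 in Sufu KO (4.01-fold, adjusted p = 8.37e-07), and Sfrp1, a secreted Wnt modulator, read 8.08, 7.41 and 7.45 in wildtype and 9.80, 10.07 and 10.09 in Sufu KO (5.07-fold, adjusted p = 3.93e-06).

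Ccnd1, the other G1 cyclin on the target list, differed from Ccnd2. It read 8.92, 8.79 and 8.84 in wildtype and 9.07, 9.16 and 9.27 in Sufu KO, and although the arrays did not overlap, its difference of 0.32 ± 0.12 (SE) did not pass (adjusted p = 0.0889). With the 6 arrays alone it passed at the same difference (adjusted p = 0.0127). Among the genes checked, that setting also added a call for Syp and removed those of Gabra2, Ptbp2, Notch3, Igfbp6 and Sostdc1. The targets that fell beside Hhip were Bcl2, an inhibitor of cell death, at 8.52, 8.45 and 8.35 in wildtype and 7.81, 7.88 and 7.99 in Sufu KO (-0.54, adjusted p = 1.79e-04), and Igf2, a growth factor, at 9.40, 9.55 and 9.28 in wildtype and 8.67, 8.43 and 8.78 in Sufu KO (-0.78, adjusted p = 2.00e-04).

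**Figure D2:**
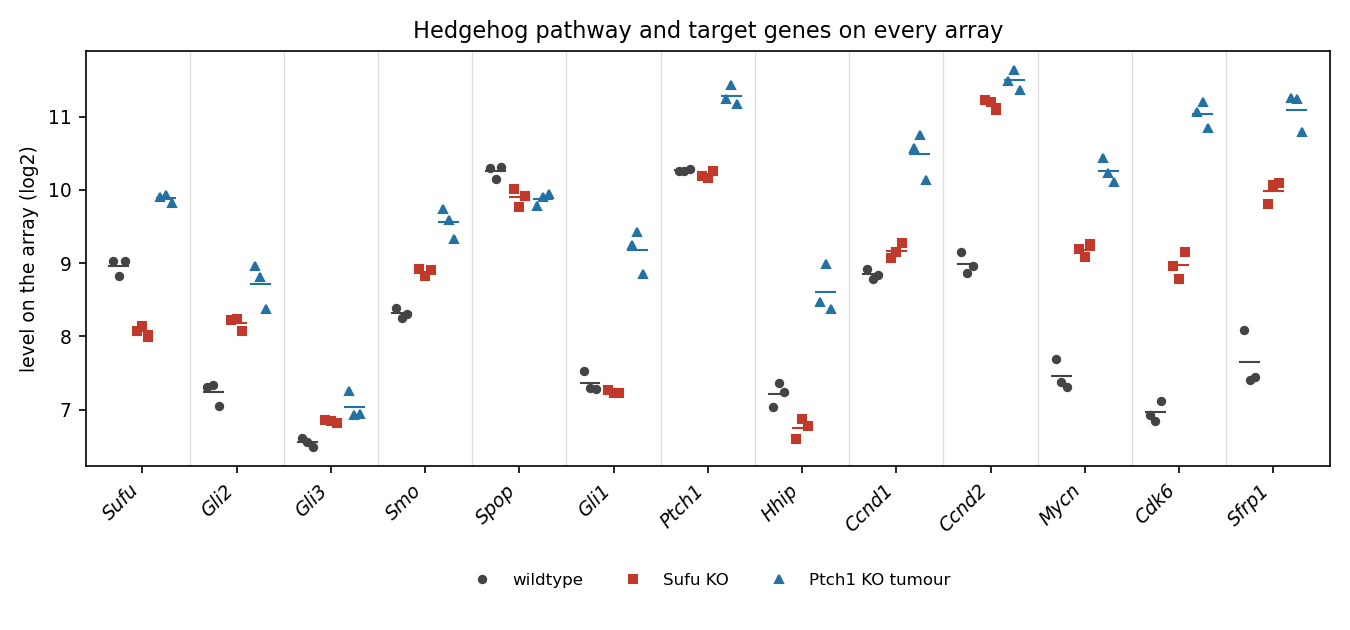
Level of 13 Hedgehog pathway and target genes (vertical axis, log2) on each wildtype, Sufu KO and Ptch1 KO tumour array; points are arrays and short lines are the means of 3. Ccnd2, Mycn, Cdk6 and Sfrp1 lie far above wildtype in Sufu KO, whereas Gli1, Ptch1 and Hhip lie at or below it and rise only in the tumours.

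The tumours labelled Ptch1 KO were set beside Sufu KO. Ptch1 itself read 11.24, 11.44 and 11.17 in the tumours and 10.25, 10.26 and 10.28 in wildtype, so its level here does not show the loss that the label names, and the labels do not say which part of the gene was deleted. Direct tests between tumours and Sufu KO, which compare no wildtype level, placed 11 of the 12 targets higher in the tumours and 0 lower, where 12.2% of all tested genes were higher and 17.5% lower. Gli1 stood 1.93 log2 units higher in the tumours than in Sufu KO (adjusted p = 1.81e-06), Hhip 1.86 (adjusted p = 4.80e-06) and Ptch1 1.08 (adjusted p = 2.82e-06). Ccnd1 stood 1.32 higher (adjusted p = 2.06e-05), but Ccnd2 only 0.32 (adjusted p = 0.018). Sufu stood 1.81 higher in the tumours, where it read 9.91, 9.92 and 9.81, and Spop differed by -0.02 (adjusted p = 0.896).

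Genes of mitosis and DNA replication rose in every case tested. All 35 tested genes of mitosis rose, of 36 listed, with a median difference of 1.71 log2 units, and in each the Sufu KO arrays lay above all wildtype arrays, an order held by 21.3% of all tested genes. Mki67, the proliferation marker, read 7.31, 6.82 and 6.98 in wildtype and 9.59, 9.67 and 9.75 in Sufu KO. Kif11, the motor that pushes spindle poles apart, read 6.32, 6.0 and 6.33 in wildtype and 8.39, 8.37 and 8.59 in Sufu KO, and rose 4.7-fold (adjusted p = 2.58e-06). Ect2, which triggers the contractile ring at division, read 6.62, 6.50 and 6.58 in wildtype and 8.60, 8.63 and 8.83 in Sufu KO, and rose 4.36-fold (adjusted p = 8.00e-07). These 3 genes rose by more than 2 log2 units, several times the spread among replicates of either group.

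By role, the 10 kinases and cyclins of mitosis had a median of 1.75, from 0.90 for Aurka, a spindle pole kinase, to 2.16 for Ccna2, the cyclin of S and G2 phase. Bub1, a kinase of the spindle checkpoint, read 5.95, 5.64 and 5.79 in wildtype and 7.92, 7.65 and 8.09 in Sufu KO (4.28-fold higher, adjusted p = 3.91e-06). The 17 kinetochore, spindle and condensin genes had a median of 1.62 and a range from 0.49 (Ndc80, which grips microtubule ends) to 2.23 (Kif11). Among the 8 markers and regulators Mki67 led at 2.63, followed by Top2a, which untangles chromosomes, at 2.35. Foxm1, the transcription factor that switches on G2 and M phase genes, rose by 1.82 (adjusted p = 7.19e-06). Of division genes outside the list, Cks2, a small binding partner of the cyclin-dependent kinases, rose 4.2-fold, Knl1, a kinetochore scaffold, 4.24-fold, and Dtl, which marks the licensing factor Cdt1 for destruction in S phase, 4.06-fold. Both other probe sets of Cks2 were called too, at 1.95 and 1.98.

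Promoters of the mitosis genes are shown because these genes moved together. Many are known to be held silent outside division by a complex that binds a CHR element, often beside the CCAAT boxes of the factor NF-Y. For Cenpe, the kinetochore motor that rose 3.32-fold, Plk1, the kinase of mitotic entry (3.28-fold), Kif11 and Ccnb2, a cyclin of mitosis (3.63-fold), the 250 bases before the RefSeq transcript start are printed 5′ to 3′ on the gene's strand. Coordinates and sequence are those of RefSeq on GRCm38.p6. Capitals mark matches to CCAAT or to the CHR letters TTTGAA or TTCGAA, on either strand.
Cenpe, chr3:135212313-135212562, plus strand: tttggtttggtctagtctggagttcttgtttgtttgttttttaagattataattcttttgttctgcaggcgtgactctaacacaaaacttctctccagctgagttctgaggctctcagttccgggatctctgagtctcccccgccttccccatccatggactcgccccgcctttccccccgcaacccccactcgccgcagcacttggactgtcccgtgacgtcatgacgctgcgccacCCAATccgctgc
Plk1, chr7:122159185-122159434, plus strand: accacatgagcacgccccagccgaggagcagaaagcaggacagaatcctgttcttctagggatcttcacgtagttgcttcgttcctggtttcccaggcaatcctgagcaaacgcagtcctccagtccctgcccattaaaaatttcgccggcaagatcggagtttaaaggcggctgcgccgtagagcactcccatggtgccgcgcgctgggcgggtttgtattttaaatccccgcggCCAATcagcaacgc
Kif11, chr19:37376132-37376381, plus strand: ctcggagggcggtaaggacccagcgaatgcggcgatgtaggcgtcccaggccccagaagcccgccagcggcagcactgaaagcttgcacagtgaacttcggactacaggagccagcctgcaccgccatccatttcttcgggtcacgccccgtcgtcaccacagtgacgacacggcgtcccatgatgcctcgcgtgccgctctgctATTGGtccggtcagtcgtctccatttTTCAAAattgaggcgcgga
Ccnb2, chr9:70421555-70421804, minus strand: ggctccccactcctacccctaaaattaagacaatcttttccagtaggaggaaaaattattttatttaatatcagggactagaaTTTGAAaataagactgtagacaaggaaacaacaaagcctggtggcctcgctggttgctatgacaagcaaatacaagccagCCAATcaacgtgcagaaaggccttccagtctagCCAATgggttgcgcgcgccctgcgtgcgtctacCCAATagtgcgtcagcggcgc

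Cenpe and Plk1 each held 1 CCAAT within 14 bases of the start. Kif11 held ATTGG, the same box on the other strand, 45 bases before the start and TTCAAA, a CHR match on the other strand, 19 bases before it. Ccnb2 held 3 CCAAT boxes, 87, 54 and 21 bases before its start, and a CHR match at 167. Over the 32 promoters that matched 30 tested mitosis genes, 71.9% held CCAAT and 43.8% a CHR match, and 40.6% held both. In all 32851 windows of this length the shares were 33.8%, 17.1% and 6.02%, and in the 16152 windows of tested genes 34.3%, 12.6% and 4.72%. Promoters of the genes at least 1 log2 unit higher held CCAAT in 54.5% and a CHR match in 26.5% of 189 windows. Of all 186 such genes, 59 belong to the lists of dividing cells, so this set overlaps the mitosis genes. Promoters of genes at least 1 log2 unit lower held them in 20.5% and 2.56% of 39. A site for E2F, the factor of S phase entry (TTTCCCGC, TTTGGCGC or TTTCGCGC, both strands), was found in 25.8% of 31 windows of DNA replication genes. The share was 3.12% of the mitosis windows, 2.45% of the windows of tested genes and 1.53% of all windows. The Gli motif GACCACCCA was found in 0 of 10 windows of Hedgehog targets and in 0.225% of all windows. A match is only a run of letters, and other windows of these genes were not searched.

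All 30 tested genes of DNA replication and S phase entry, of 31 listed, rose, with a median of 0.87, smaller than that of mitosis. The 14 genes of origin licensing and the replicative helicase ran from 0.31 for Orc1, a subunit that marks origins, to 1.98 for the helicase subunit Mcm6. The Orc1 call was lost without wildtype replicate 2 (adjusted p = 0.0556). Mcm7, of the same helicase, read 7.50, 7.22 and 7.47 in wildtype and 9.10, 9.04 and 9.19 in Sufu KO. Its partner Mcm5 read 7.55, 7.45 and 7.54 in wildtype and 8.75, 8.82 and 8.76 in Sufu KO. Every Sufu KO array lay above every wildtype array in both. The 11 polymerase, clamp and loader genes had a median of 0.91, with Pole, the leading-strand polymerase, at 1.68 and Pcna, the sliding clamp, at 1.23. E2f1, which switches on S phase genes, read 7.51, 7.51 and 7.34 in wildtype and 8.75, 8.73 and 8.93 in Sufu KO, and rose 2.55-fold (adjusted p = 1.46e-06).

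The G1 regulators were mixed. Of 15 tested, 6 rose and 0 fell. Cdk4 and Cdk6, the partners of D cyclins, rose by 0.72 and 2.0, and Cdk2, the kinase of S phase entry, by 1.07, while Ccne1, a cyclin partner of Cdk2, did not pass at 0.12 (adjusted p = 0.362). Among the inhibitors of these kinases, Cdkn2c, a p18 protein of neural progenitors, rose by 0.86 (adjusted p = 8.96e-05) and Cdkn1b, the p27 protein of granule cells leaving the cycle, by 0.44 (adjusted p = 8.13e-04). A second, dimmer probe set of Cdkn1b read -0.36 and did not pass (adjusted p = 0.361 over all probe sets). Cdkn2a, the tumour suppressor locus that answers to oncogenes, differed by 0.00 (adjusted p = 0.994).

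Most genes of DNA repair, chromatin and nucleotide synthesis rose too. Of 14 genes of homologous recombination and Fanconi repair 12 rose, with a median of 0.77. Chek1, the checkpoint kinase of stalled forks, read 6.14, 5.92 and 6.18 in wildtype and 7.28, 7.40 and 7.38 in Sufu KO, and Brca2, of homologous recombination, read 6.71, 6.48 and 6.64 in wildtype and 7.41, 7.55 and 7.83 in Sufu KO (rises of 2.42-fold and 1.98-fold, adjusted p = 4.15e-05 and 1.25e-04). Of 14 chromatin genes 12 rose, with a median of 0.98. Chaf1b and Asf1b, histone chaperones of newly made DNA, rose 3.16-fold and 2.46-fold, and Lmnb1, the lamin of immature nuclei, 2.57-fold. Of 17 genes of nucleotide and one-carbon synthesis 14 rose, with a median of 0.43. Rrm2 and Rrm1, the subunits of ribonucleotide reductase, rose 3.09-fold and 2.17-fold, and Tyms, thymidylate synthase, 2.22-fold. Of 18 ribosome biogenesis genes 8 rose, 0 fell and 10 did not pass, at a smaller median of 0.28. Ncl, a nucleolar protein, read 9.65, 9.68 and 9.69 in wildtype and 10.16, 10.16 and 10.26 in Sufu KO (1.43-fold higher, adjusted p = 7.87e-04). The count for ribosome biogenesis dropped to 5 without wildtype replicate 3.

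**Figure D3:**
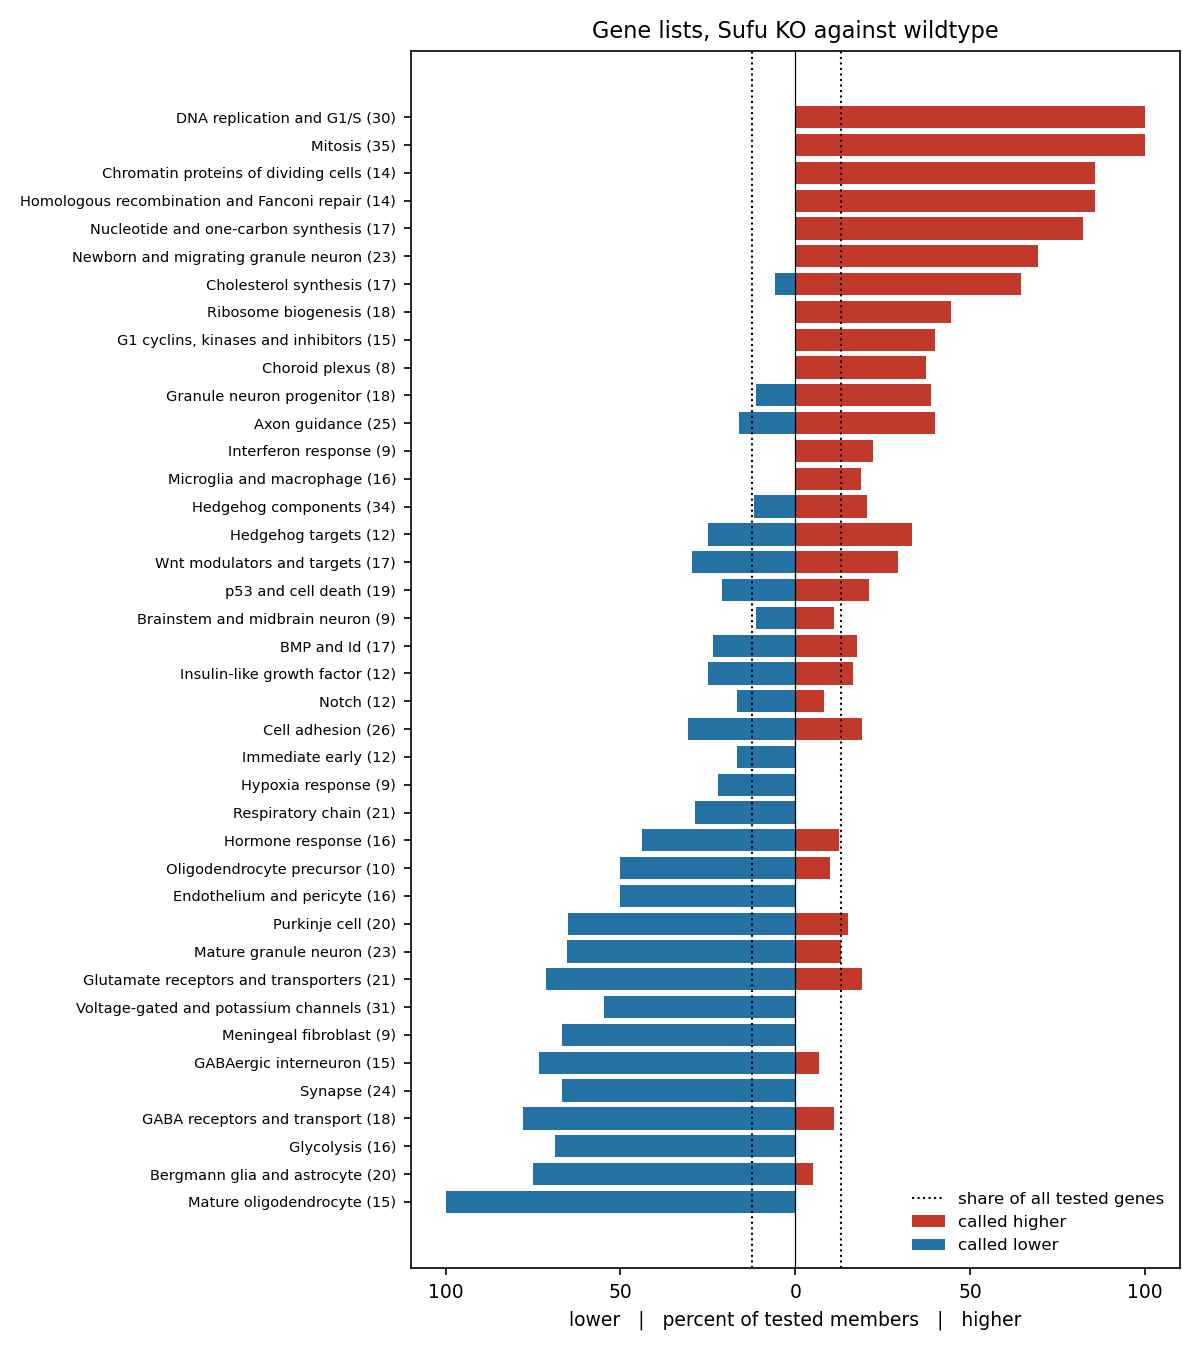
Share of the tested members of each gene list with at least 8 of them called higher (right) or lower (left) in Sufu KO, in percent, with the number tested in brackets; dotted lines mark the shares of all tested genes, 13% and 12.4%. Lists of division stand at the top with every or nearly every member higher, and mature oligodendrocyte genes at the bottom with all 15 lower.

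Genes of the granule neuron lineage differed by stage. A level in RNA from whole tissue is a share of all the RNA taken, so a change in the number of cells of a type and a change of RNA per cell cannot be told apart, here and in every cell type list below. Of 18 tested progenitor genes 7 rose and 2 fell. All 7 that rose were among the 12 transcription factors of the list. Atoh1, which specifies granule progenitors, read 6.65, 6.56 and 6.25 in wildtype and 7.77, 7.92 and 8.27 in Sufu KO, and rose 2.83-fold (adjusted p = 1.83e-04). Olig3, a factor of the rhombic lip from which the progenitors arise, read 5.54, 5.30 and 5.32 in wildtype and 7.19, 7.14 and 7.22 in Sufu KO (3.48-fold, adjusted p = 6.53e-06). Insm1, a factor of dividing neural progenitors, read 8.99, 8.54 and 8.68 in wildtype and 10.12, 10.09 and 10.32 in Sufu KO (2.72-fold, adjusted p = 3.96e-06). All 3 stood clear of wildtype on every array.

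The other progenitor factors were unequal. Barhl1 rose by 1.03, Meis1 by 0.75, Pax6 by 0.64 and Zic5 by 0.47, whereas Zic1 and Zic2, which granule neurons keep through later stages, differed by 0.12 and 0.03 and did not pass (adjusted p = 0.235 and 0.864). The members that fell were Sox2 and Prom1, genes of neural stem cells and glia, at -0.66 and -0.53. The summed level of the progenitor list (log2 of the sum of linear values) ran from 14.18 to 14.34 in Sufu KO and from 13.86 to 14.02 in wildtype.

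Among genes of newborn and migrating granule neurons, 16 of 23 tested rose and 0 fell, with a median of 0.64. Nhlh1, a transcription factor of cells that have just left the cycle, read 7.95, 7.51 and 7.67 in wildtype and 9.56, 9.51 and 9.57 in Sufu KO. Its relative Nhlh2 read 7.56, 7.43 and 7.32 in wildtype and 8.53, 8.45 and 8.64 in Sufu KO. Igfbpl1, a secreted protein of newborn neurons, read 7.87, 7.47 and 7.32 in wildtype and 9.65, 9.64 and 9.71 in Sufu KO. The 3 rose 3.57-fold, 2.14-fold and 4.31-fold (adjusted p = 7.40e-07, 3.91e-06 and 1.06e-06), and their Sufu KO arrays lay close together and above all wildtype arrays. Sox11, a factor of immature neurons, rose by 1.66, Cd24a, a surface protein of postmitotic progenitors, by 1.35, and Dcx, the microtubule protein of migrating neurons, by 0.93. The transcription factors Neurod1 and Neurod2, which granule neurons keep once mature, did not pass, at 0.07 and -0.09 (adjusted p = 0.637 and 0.555).

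Mature granule neuron genes were mostly lower: 15 of 23 fell and 3 rose, with a median of -0.56. Cbln3, a cerebellin secreted by granule neurons, read 11.64, 11.69 and 11.93 in wildtype and 10.54, 10.55 and 10.60 in Sufu KO, and fell 2.28-fold (adjusted p = 0.00252). Rasgrf1, a Ras activator driven by calcium, read 9.22, 9.35 and 9.39 in wildtype and 8.24, 8.28 and 8.27 in Sufu KO (2.08-fold lower, adjusted p = 4.55e-06). Calb2, the calcium buffer calretinin, read 10.71, 10.87 and 11.14 in wildtype and 9.88, 10.01 and 9.94 in Sufu KO (1.95-fold lower, adjusted p = 1.12e-04). Each lay lower on every Sufu KO array. The members that rose were the factor genes Nfix (0.33) and Cux1 (0.25) and the potassium channel gene Kcnj6 (0.63). Of the 4 transcription factors of the list 2 rose and 1 fell, against 1 and 14 of the 19 receptor, channel and synapse genes. The Cux1 call was lost without wildtype replicate 2 (adjusted p = 0.0541).

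Pairs in which an early gene gives way to a late one during neuronal maturation were read within each array, as the early level minus the late level. With 3 arrays against 3 the exact permutation test, 2-sided, cannot give a p below 0.1, and 9 of the 11 pairs reached it with higher values on all Sufu KO arrays. The pairs were chosen with earlier results of these data known, so that count is no separate result. Of single tested genes, 21.3% read higher on all Sufu KO arrays than on any wildtype array. The vesicular glutamate transporter pair showed the largest change, 1.70 log2 units: Slc17a6, the early form, read 9.04, 8.96 and 8.82 in wildtype and 10.02, 10.05 and 9.85 in Sufu KO and Slc17a7, the late form, read 11.02, 11.21 and 11.18 in wildtype and 10.46, 10.49 and 10.47 in Sufu KO. The NMDA receptor pair changed by 1.45. Its early subunit Grin2b read 9.51, 9.05 and 9.08 in wildtype and 9.96, 9.89 and 9.93 in Sufu KO, and the late granule neuron subunit Grin2c read 9.61, 9.72 and 9.70 in wildtype and 8.99, 8.96 and 8.87 in Sufu KO. Both early members rose and both late members fell, with no overlap of arrays (adjusted p = 4.87e-06, 0.00552, 9.47e-04 and 0.00543).

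The other pairs that changed did so unequally in their members. Ezh2, the Polycomb methyltransferase of dividing cells, rose by 0.94 while Ezh1, its counterpart in resting cells, differed by -0.16 (adjusted p = 0.095), a pair change of 1.10. Actl6a, a subunit of the BAF chromatin remodelling complex in progenitors, rose by 0.82 while Actl6b, which replaces it in neurons, differed by 0.12 (adjusted p = 0.372), a pair change of 0.70. The GABA-A receptor pair changed by 1.06, through a fall of Gabra6 (-0.80) and a smaller called rise of Gabra2 (0.25, adjusted p = 0.0436). The Gabra2 call did not hold without wildtype replicates 2 (adjusted p = 0.146) or 3 (0.135) or Sufu KO replicates 2 (0.0896) or 3 (0.149). The sodium channel pair changed by 0.97 through Scn1a alone (-0.96), since Scn3a differed by 0.01 (adjusted p = 0.964). Cntn2, an adhesion protein of migrating granule neurons, rose by 0.69 while Cntn1 differed by -0.09, a pair change of 0.77.

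Some pairs moved in the same direction. Ptbp1, the splicing repressor of non-neuronal and dividing cells, and Ptbp2, its early neuronal relative, were both called higher (0.57 and 0.23), with a pair change of 0.34. The Ptbp2 call was lost without wildtype replicates 1 (adjusted p = 0.0946) or 2 (0.144) and without Sufu KO replicates 1 (0.0615) or 3 (0.11). The chloride importer Slc12a2 and the exporter Slc12a5, which sets the mature response to GABA, both fell (-0.31 and -0.71), with a pair change of 0.40. The BAF subunit pairs Phf10 and Dpf1 (pair change 0.19, exact permutation p = 0.3) and Ss18 and Ss18l1 (-0.08, exact permutation p = 0.5) overlapped between the groups. Of these 4 genes Ss18l1 alone was called, at 0.28 (adjusted p = 0.0114), and it lost its call without wildtype replicate 2 (0.0571) or Sufu KO replicate 2 (0.0523).

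**Figure D4:**
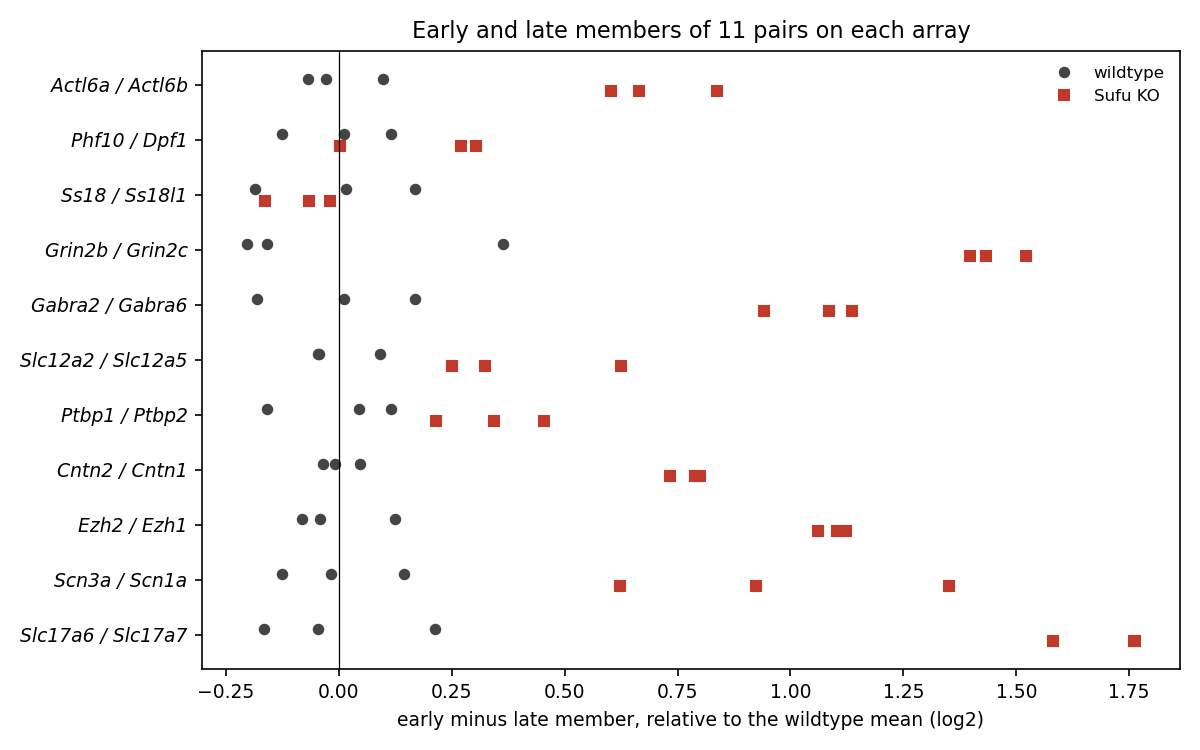
Early minus late member of each of 11 gene pairs on each array (horizontal axis, log2, relative to the wildtype mean of the pair) for wildtype and Sufu KO. Sufu KO arrays lie to the right of all wildtype arrays in 9 pairs, most in Slc17a6 against Slc17a7 (1.70), and overlap them in Phf10 against Dpf1 and Ss18 against Ss18l1.

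Genes of ion channels were mostly lower. Of 31 tested voltage-gated and potassium channel genes 17 fell and 0 rose, with a median of -0.47. Kcnip4, a partner of A-type potassium channels, read 10.10, 10.11 and 10.23 in wildtype and 8.91, 9.01 and 8.89 in Sufu KO. Its relative Kcnip1 read 9.19, 9.24 and 9.31 in wildtype and 8.40, 8.49 and 8.52 in Sufu KO. Their arrays did not overlap, and the falls were 2.31-fold and 1.71-fold (adjusted p = 3.13e-06 and 1.13e-05). Scn1a, a sodium channel of fast-spiking neurons, read 8.67, 8.84 and 8.72 in wildtype and 7.57, 7.99 and 7.81 in Sufu KO (1.94-fold lower, adjusted p = 4.52e-05). By role, 10 of 18 potassium channel genes and 7 of 13 sodium and calcium channel genes fell, and genes such as Kcnd2 (-0.10) and Cacna1e (-0.02) did not pass (adjusted p = 0.557 and 0.915).

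Receptor genes went mainly the same way, with few exceptions. Of 18 genes of GABA receptors and transport 14 fell and 2 rose. Gad1, which makes GABA, read 10.33, 10.44 and 10.55 in wildtype and 9.68, 9.57 and 9.66 in Sufu KO. Its isozyme Gad2 read 9.08, 9.01 and 8.97 in wildtype and 8.36, 8.38 and 8.32 in Sufu KO. Slc32a1, which loads GABA into vesicles, read 8.23, 8.19 and 8.36 in wildtype and 7.44, 7.58 and 7.47 in Sufu KO. These fell 1.74-fold, 1.59-fold and 1.7-fold (adjusted p = 3.80e-05, 1.86e-04 and 6.48e-05) on arrays that did not overlap. Slc6a11, a GABA transporter of astrocytes, rose by 0.55 (adjusted p = 0.00453). Of 21 glutamate receptor and transporter genes 15 fell and 4 rose. Gria3, an AMPA receptor subunit, read 9.91, 9.90 and 9.95 in wildtype and 8.84, 9.11 and 9.01 in Sufu KO (1.91-fold lower, adjusted p = 1.74e-05), and Gria1, the subunit of Bergmann glia and Purkinje cells, fell by 1.02. The 4 that rose were Slc17a6, Grin2b, Grm5, a metabotropic receptor prominent in immature neurons (0.61), and Grik2, a kainate receptor subunit (0.26).

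Of 24 synaptic genes 16 fell and 0 rose. Among the 13 presynaptic members 7 fell, with a median of -0.22; among the 11 postsynaptic members 9 fell, with a median of -0.40. Camk2a, the calcium-dependent kinase of the postsynaptic density, read 8.57, 8.54 and 8.54 in wildtype and 7.82, 7.92 and 7.83 in Sufu KO. Ppp1r1b, a phosphatase inhibitor of dopamine signalling, read 8.32, 8.31 and 8.30 in wildtype and 7.86, 7.78 and 7.78 in Sufu KO. Both fell (-0.69 and -0.51, adjusted p = 1.48e-05 and 1.85e-04), while the general vesicle protein genes Syt1 and Syp differed by -0.15 and -0.20 and did not pass (adjusted p = 0.454 and 0.148).

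Purkinje cell genes divided by role. All 11 tested genes of calcium handling and signalling fell, with a median of -0.68. Calb1 read 11.58, 11.47 and 11.64 in wildtype and 10.82, 10.92 and 10.91 in Sufu KO (1.6-fold lower, adjusted p = 4.15e-05), and Gng13, a G protein subunit, fell by 1.03. Of the 9 developmental transcription factors 3 rose and 2 fell. Ebf3, a factor of early neurons, read 8.22, 8.02 and 7.95 in wildtype and 9.70, 9.68 and 9.90 in Sufu KO, and rose 3.24-fold (adjusted p = 1.46e-06), and Ebf1 read 9.93, 9.66 and 9.81 in wildtype and 10.48, 10.59 and 10.55 in Sufu KO. Lhx1 rose by 0.75, Rora, which Purkinje cells need to mature, fell by 0.51 and Lhx5 by 0.44, and Foxp2, Skor2, Bcl11a and Ebf2 did not pass, with differences from -0.09 to 0.19.

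Of 15 genes of GABAergic interneurons 11 fell and 1 rose, the rise being that of Lhx1, which the Purkinje list also holds. Tfap2b, a factor of GABAergic progenitors, read 8.33, 8.27 and 8.40 in wildtype and 7.30, 7.27 and 7.40 in Sufu KO. Pvalb, the calcium buffer of interneurons and Purkinje cells, read 10.85, 10.98 and 10.92 in wildtype and 9.68, 10.0 and 10.04 in Sufu KO. Sorcs3, a sorting receptor, read 7.92, 7.68 and 7.74 in wildtype and 6.55, 6.57 and 6.46 in Sufu KO. They fell 2.01-fold, 2.02-fold and 2.38-fold (adjusted p = 3.03e-06, 1.86e-05 and 2.03e-06), with no overlap of arrays. Pax2, a marker of interneuron precursors, did not pass at -0.10 (adjusted p = 0.432). Of 4 unipolar brush cell genes 1 fell, Plcb4 (-0.54), and Eomes, the marker that sets these cells apart, differed by -0.01 (adjusted p = 0.983).

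Glial genes were mostly lower. Of 20 tested Bergmann glia and astrocyte genes 15 fell and 1 rose, with a median of -0.57. Gdf10, a growth factor of Bergmann glia, read 10.39, 10.20 and 10.56 in wildtype and 8.71, 8.66 and 8.81 in Sufu KO. Fam107a, an actin-binding protein of astrocytes, read 10.89, 10.82 and 11.06 in wildtype and 9.06, 9.41 and 9.14 in Sufu KO. Hepacam, a glial adhesion protein outside the list, read 9.49, 9.31 and 9.51 in wildtype and 8.05, 8.23 and 8.39 in Sufu KO. The falls were 3.16-fold, 3.31-fold and 2.31-fold (adjusted p = 3.91e-06, 3.39e-04 and 3.96e-06). Lcat, the cholesterol-esterifying enzyme that astrocytes secrete, also fell 2.37-fold. Not every glial gene was lower: Sox9, the factor that specifies glia, differed by 0.00, Fabp7, a lipid carrier of radial and Bergmann glia, 0.05, and Aldh1l1, an astrocyte enzyme, -0.05 (adjusted p = 0.998, 0.704 and 0.837). Slc6a11 was the member that rose.

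All 15 tested genes of mature oligodendrocytes fell, with a median of -0.66. Mal, a myelin membrane protein, read 10.18, 10.63 and 10.37 in wildtype and 9.43, 9.66 and 9.29 in Sufu KO (1.91-fold lower, adjusted p = 1.52e-04), and Aspa, an enzyme of oligodendrocytes, read 7.56, 7.93 and 7.64 in wildtype and 6.68, 7.08 and 6.98 in Sufu KO. The arrays of this list were uneven: the median of its members relative to wildtype was -0.91, -0.37 and -0.74 on Sufu KO replicates 1, 2 and 3. Mbp, which encodes myelin basic protein, fell least, at -0.31 (adjusted p = 0.0308). Its call was lost without wildtype replicates 1 (0.0516) or 2 (0.134) or Sufu KO replicates 1 (0.107) or 3 (0.0669). Precursor genes were mixed. Of 10 tested 5 fell, among them Olig1 (-0.52) and Sox10 (-0.49), and 1 rose. That was Pdgfra, the growth factor receptor of oligodendrocyte precursors, at 8.17, 8.03 and 7.87 in wildtype and 9.14, 9.12 and 9.23 in Sufu KO (2.2-fold higher, adjusted p = 7.12e-06), while Cspg4, the other classical precursor marker, differed by -0.01 (adjusted p = 0.938). The number of precursor genes that fell was 3 without wildtype replicates 1 or 3 or Sufu KO replicates 1 or 3, and 2 without wildtype replicate 2.

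Among markers of cells from outside the neural lineages, those of vessels and meninges were called lower more often than higher, and few of microglia were called. Of 16 endothelium and pericyte genes 8 fell and 0 rose, and the summed level of the list ran from 11.60 to 11.70 in Sufu KO against 11.92 to 12.03 in wildtype. Vtn, a pericyte protein, read 9.38, 9.52 and 9.56 in wildtype and 8.68, 8.82 and 8.69 in Sufu KO, and Ocln, of tight junctions, read 7.63, 7.67 and 7.74 in wildtype and 6.95, 7.06 and 7.13 in Sufu KO. Their falls were 1.69-fold and 1.55-fold (adjusted p = 7.78e-04 and 2.65e-04). The count was 4 without wildtype replicate 2 and 5 without Sufu KO replicate 1. Of 9 meningeal fibroblast genes 6 fell, with a median of -0.36, and with a sex covariate 3 did. Of 16 microglia and macrophage genes 3 rose, C1qb (0.53), Cd68 (0.42) and Lyz2 (0.69), where 13% of all tested genes rose. That count is not read as a change of these cells. The homeostatic markers P2ry12 and Tmem119 differed by -0.12 and -0.07 (adjusted p = 0.288 and 0.674). The Lyz2 call was lost without any 1 of the 3 wildtype replicates (adjusted p = 0.0858, 0.0727 and 0.0514) and without Sufu KO replicates 2 (0.0507) or 3 (0.0907), while without Sufu KO replicate 1 the list had 6 rises rather than 3. The summed level of the microglia list ran from 10.80 to 10.83 in wildtype and from 10.96 to 11.09 in Sufu KO.

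Tissue that could have been taken along in dissection was read by its own markers. Of 8 choroid plexus genes 3 were called higher (1 without wildtype replicate 1 or Sufu KO replicate 1), and the summed level of the list ran from 9.87 to 11.04 in wildtype and from 10.11 to 12.24 in Sufu KO. Ttr, the thyroxine carrier that choroid plexus makes in bulk, read 7.79, 10.44 and 8.78 in wildtype and 10.74, 7.83 and 11.88 in Sufu KO, and did not pass (adjusted p = 0.406), with overlapping arrays. Otx2, a factor of choroid plexus and of posterior granule progenitors, rose by 0.70 (adjusted p = 0.00138). Of 9 brainstem and midbrain neuron genes 1 rose, Slc17a6, and 1 fell, Ddc (-0.21, adjusted p = 0.0372). The Ddc call was lost without any 1 of wildtype replicates 1 (0.0963) and 2 (0.142) and Sufu KO replicates 1 (0.0609), 2 (0.101) and 3 (0.0799). Th, Chat, Dbh and Hoxb3, genes of other transmitter systems and of the hindbrain, read from -0.08 to 0.12 and did not pass. Of 2 tested red blood cell genes, Alas2 and Slc4a1, neither passed (-0.38 and -0.10, adjusted p = 0.0534 and 0.286). The part of other tissue in the results above was not tested.

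**Figure D5:**
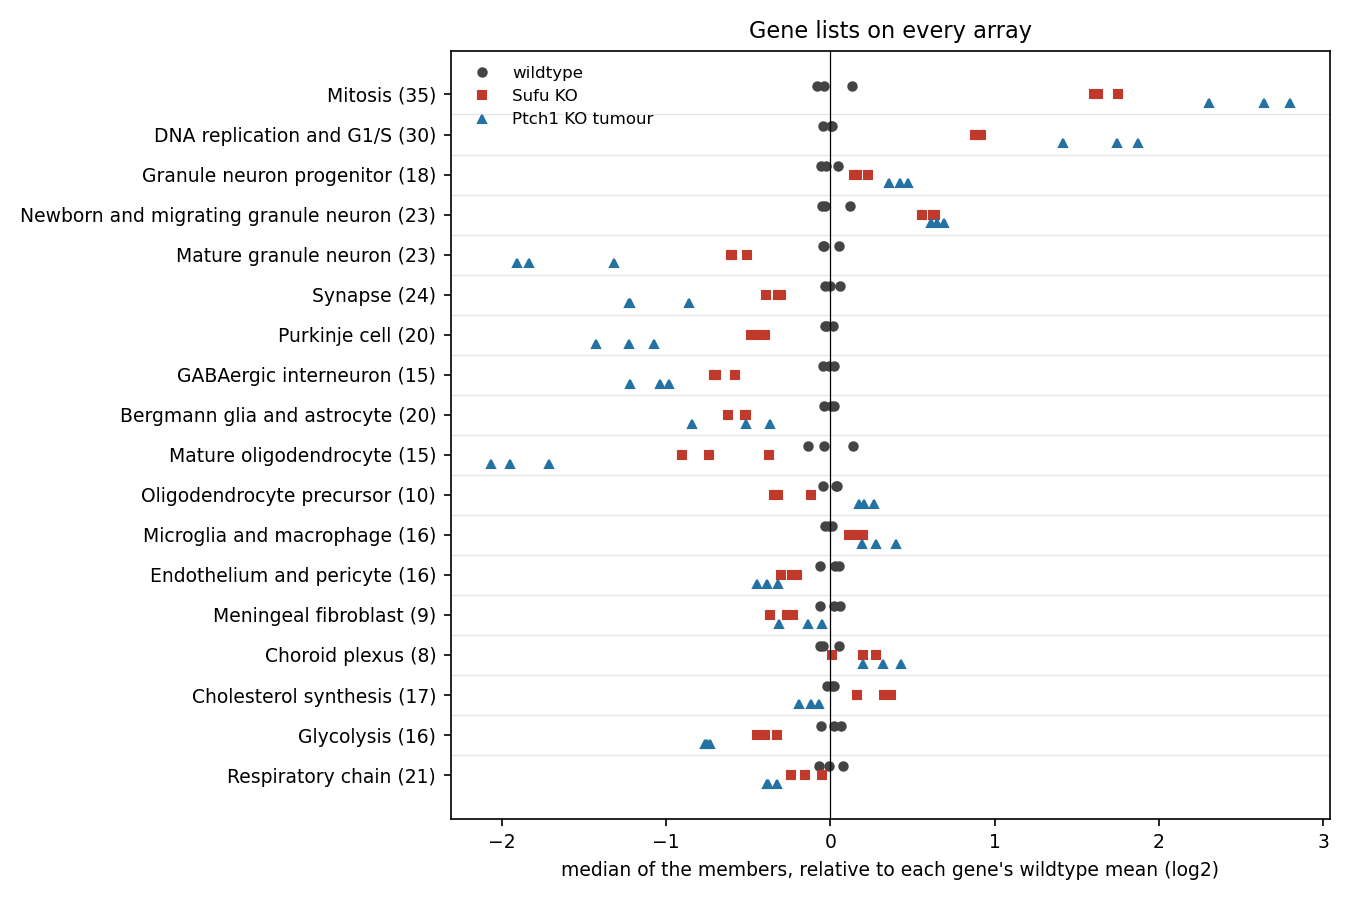
Median of the members of 18 gene lists on every array (horizontal axis, log2, relative to each gene's wildtype mean), with the number of tested members in brackets, for wildtype, Sufu KO and Ptch1 KO tumours. Sufu KO arrays lie between wildtype and tumours for mitosis, replication, mature granule neuron and synapse lists, and above both for cholesterol synthesis.

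Genes of energy metabolism were lower or did not pass, and genes of sterol synthesis were mostly higher. Of 16 glycolytic genes 11 fell and 0 rose, with a median of -0.40. Eno2, the neuronal enolase, read 11.58, 11.78 and 11.87 in wildtype and 10.86, 10.77 and 10.88 in Sufu KO (1.88-fold lower, adjusted p = 3.94e-04), and Aldoc, the aldolase of astrocytes and Purkinje cells, fell by 0.54. Hk2, the hexokinase that Hedgehog signalling is known to induce in granule progenitors, differed by 0.17, and Ldha 0.03, and neither passed (adjusted p = 0.205 and 0.83). Of 21 respiratory chain genes 6 fell and 0 rose, with a median of -0.17.

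Of 17 cholesterol synthesis genes 11 rose and 1 fell, with a median of 0.27. Fdft1, the first enzyme committed to sterols, read 10.02, 10.01 and 10.17 in wildtype and 10.79, 10.94 and 10.89 in Sufu KO. Sqle, which opens the path to lanosterol, read 9.55, 9.57 and 9.57 in wildtype and 10.09, 10.05 and 10.08 in Sufu KO, and Mvd, of the mevalonate steps, read 8.23, 8.20 and 8.12 in wildtype and 8.75, 8.78 and 8.76 in Sufu KO. They rose 1.75-fold, 1.42-fold and 1.49-fold (adjusted p = 1.32e-05, 6.90e-05 and 2.88e-04) and their arrays did not overlap. The second probe set of Fdft1 read 0.795. Ebp, a late isomerase, was the one that fell (-0.53), and the late enzymes Sc5d and Dhcr7 differed by -0.14 and -0.18 without passing. In the tumours 16 of the 17 genes were lower than in Sufu KO and 0 higher, with a median difference from wildtype of -0.14. The number that rose in Sufu KO dropped to 6 without wildtype replicate 1, and to 7 without wildtype replicate 3 or Sufu KO replicate 2.

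In lists of signalling pathways other than Hedgehog, genes were called in both directions, where 13% of all tested genes rose and 12.4% fell. These counts are not read as a change of any pathway. Of 17 Wnt modulators and targets 5 rose and 5 fell. Sfrp2, a relative of Sfrp1, read 6.59, 6.37 and 6.79 in wildtype and 7.63, 7.71 and 7.74 in Sufu KO, and rose 2.15-fold (adjusted p = 0.00126), and Lgr5, a receptor for R-spondins, rose by 0.51. Wif1, a secreted inhibitor made by astroglia, fell by 1.07 (adjusted p = 0.00175). Of 17 genes of BMP signalling and its Id targets 3 rose and 4 fell. Bmp5 read 8.23, 8.05 and 8.12 in wildtype and 9.30, 9.32 and 9.43 in Sufu KO, and rose 2.32-fold, and Id4, an inhibitor of differentiation found in astroglia, read 8.71, 8.73 and 8.99 in wildtype and 7.78, 7.78 and 7.91 in Sufu KO, and fell 1.99-fold (adjusted p = 3.19e-05 and 3.72e-04). The number of Wnt genes that fell was 3 without wildtype replicates 1 or 3 or Sufu KO replicate 1, and of BMP and Id genes 1 without wildtype replicates 1 or 2 and 2 without Sufu KO replicates 2 or 3. Of 12 Notch genes 1 rose and 2 fell; the effector genes Hes1 and Hes5 differed by -0.02 and -0.10 without passing, and Hey2 fell by 0.53 (adjusted p = 5.30e-04). The calls of the other Notch genes, Notch2 (0.25) and Notch3 (-0.20), were each lost without any 1 of several arrays: Notch2 without wildtype replicates 2 (0.106) or 3 (0.0594) or Sufu KO replicates 2 (0.0578) or 3 (0.0752), and Notch3 without wildtype replicates 1 (0.115), 2 (0.124) or 3 (0.0557) or Sufu KO replicates 1 (0.117) or 3 (0.0796). Of 12 insulin-like growth factor genes, Igfbp2 and Igf1r rose (0.46 and 0.37) and Igf2, Igfbp5 and Igfbp6 fell (-0.78, -0.59 and -0.23). The Igf1r call was lost without wildtype replicate 2 (adjusted p = 0.0568), and that of Igfbp6 without any 1 of the wildtype replicates (0.106, 0.0853 and 0.0896) or Sufu KO replicate 3 (0.134).

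Of 19 genes of the p53 response and cell death 4 rose and 4 fell, and the median was near 0 on every Sufu KO array. Apaf1, the core of the apoptosome, read 7.42, 7.14 and 7.36 in wildtype and 7.86, 7.89 and 7.87 in Sufu KO, and Trp53inp1, a p53 cofactor, read 8.80, 8.59 and 8.68 in wildtype and 9.41, 9.29 and 9.41 in Sufu KO. Both rose (1.48-fold and 1.6-fold, adjusted p = 9.97e-04 and 8.01e-05), whereas the classical p53 targets Mdm2, Ccng1 and Bbc3 differed by -0.01, -0.09 and 0.04 without passing. Of 12 immediate early genes 2 fell, Egr1, a transcription factor induced by activity (-0.49), and Dusp1, a phosphatase that shuts off MAP kinases (-0.58). Dusp1 read 9.97, 10.62 and 9.77 in wildtype and 9.47, 9.59 and 9.55 in Sufu KO, so wildtype replicate 2 lay apart. The Dusp1 call was lost without Sufu KO replicates 1 (adjusted p = 0.0642) or 2 (0.0515) and with a sex covariate (0.0858). Without wildtype replicate 3 the list had 5 falls. Of 9 hypoxia genes 2 fell, Car9 (-0.97) and Ndrg1 (-0.56).

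Of 25 axon guidance genes 10 rose and 4 fell. Dcc, the netrin receptor, read 7.83, 7.42 and 7.85 in wildtype and 9.78, 9.91 and 10.03 in Sufu KO, and rose 4.61-fold (adjusted p = 7.40e-07), while its ligand gene Ntn1 differed by -0.16 (adjusted p = 0.195). Robo2, a receptor for Slit proteins, read 9.73, 9.53 and 9.44 in wildtype and 10.28, 10.37 and 10.37 in Sufu KO, and Plxnb2, a plexin of migrating granule progenitors, read 10.0, 9.93 and 10.02 in wildtype and 10.68, 10.74 and 10.75 in Sufu KO. Both rose (0.78 and 0.74, adjusted p = 3.44e-05 and 6.56e-05). The number that rose was 5 without wildtype replicate 2 or Sufu KO replicate 3, and the number that fell was 1 without wildtype replicate 2 or Sufu KO replicate 1 and 2 without wildtype replicate 3. Of 26 adhesion genes 5 rose (3 without wildtype replicate 2) and 8 fell (5 without wildtype replicate 1). Cntn4, an axonal adhesion protein, read 8.72, 8.76 and 8.94 in wildtype and 7.38, 7.66 and 7.37 in Sufu KO, a fall of 2.53-fold (adjusted p = 3.91e-06). Chrna3, a nicotinic receptor subunit, read 7.73, 7.18 and 7.29 in wildtype and 9.99, 10.04 and 10.13 in Sufu KO, and Prm1, a protamine of sperm, read 6.13, 5.96 and 5.74 in wildtype and 9.86, 9.92 and 10.13 in Sufu KO. Both stood far above every wildtype array, with rises of 6.29-fold and 16.3-fold (adjusted p = 2.38e-07 and 1.26e-09). Prm1 was the only called gene among 4 tested germ line genes.

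Genes that respond to glucocorticoid and thyroid hormone were more often lower than higher, 7 against 2 of 16. Of 9 glucocorticoid-responsive genes 5 fell, among them Pdk4 (-0.41), which turns off pyruvate oxidation, and the receptor gene Nr3c1 (-0.34), whose call was lost with a sex covariate. The 1 that rose was Fkbp5 (0.60), a chaperone of that receptor. Of 7 genes of thyroid hormone response 2 fell, Dio2 (-0.56), the enzyme that activates thyroxine, and Nrgn (-0.43), a calmodulin-binding protein whose call was lost without wildtype replicate 2 (0.0595). The 1 that rose was the receptor gene Thra (0.23, adjusted p = 0.0342), a call lost whichever single array was left out (adjusted p from 0.0603 to 0.109). Of 9 interferon-responsive genes 2 rose, Ifit2 (0.41) and Usp18 (0.24). The Ifit2 call was lost without wildtype replicates 2 (0.121) or 3 (0.075) or Sufu KO replicates 1 (0.0885) or 3 (0.0662).

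Other genes with large falls belonged to none of the lists. Ccl19, a chemokine of lymphoid tissue, read 8.68, 8.71 and 8.63 in wildtype and 7.44, 7.35 and 7.38 in Sufu KO, and its other probe sets read from -1.14 to -1.41; mouse carries near-identical copies of this gene, so the source of the signal is uncertain. Fat3, an atypical cadherin that shapes dendrites, read 9.51, 9.36 and 9.69 in wildtype and 8.05, 8.53 and 8.46 in Sufu KO, and each of its other probe sets was called lower too, from -0.37 to -1.01. Ptpn22 and Sla, signalling proteins best known from lymphocytes, fell 2.61-fold and 2.23-fold. Some of these falls were uneven. Galnt15, an enzyme of O-glycosylation, read 8.71, 8.68 and 8.98 in wildtype and 8.47, 6.90 and 6.95 in Sufu KO, with Sufu KO replicate 1 near wildtype, and without replicate 2 its adjusted p was 0.0502. A2m, a protease inhibitor, read 7.93, 8.37 and 9.07 in wildtype and 7.24, 6.88 and 7.58 in Sufu KO. Pagr1a, a subunit of histone methyltransferase complexes, read 10.51, 10.54 and 9.45 in wildtype and 8.99, 9.01 and 8.90 in Sufu KO, with wildtype replicate 3 far below the others, and did not pass with a sex covariate (adjusted p = 0.053).

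A small set of genes stood apart from both other groups. With placeholder symbols left out, 188 of 14973 tested genes (1.26%) lay above both wildtype and tumours, called in both contrasts with no overlap of arrays, and 74 (0.494%) lay below both. Padi4, which converts arginine to citrulline in proteins, read 5.20, 5.36 and 5.28 in wildtype and 6.23, 6.49 and 6.53 in Sufu KO, and 5.64, 5.66 and 5.65 in the tumours. Kcnj6, a potassium channel opened by G proteins, read 8.50, 8.20 and 8.49 in the tumours, 0.78 log2 units below Sufu KO. Ppp2r2b, a regulatory subunit of phosphatase 2A, read 8.74, 8.78 and 8.70 in wildtype and 9.47, 9.51 and 9.53 in Sufu KO, and 8.91, 8.58 and 8.89 in the tumours. In these 3 genes the tumours lay closer to wildtype than to Sufu KO. Genes here were picked by the smaller of their differences from both groups, which favours that order, so it is no separate result. Gpc4, a heparan sulphate carrier of the cell surface, and Dok6, an adaptor of receptor tyrosine kinases, were the other 2 of the 5 highest (0.81 and 0.79 above wildtype).

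Below both other groups, after Sufu itself, came Smad3, which carries signals of TGF-beta and activin. It read 9.18, 9.12 and 9.31 in wildtype and 8.36, 8.38 and 8.31 in Sufu KO, and 9.39, 9.56 and 9.33 in the tumours (1.81-fold below wildtype, adjusted p = 1.58e-05; 1.08 log2 units lower than in the tumours, adjusted p = 3.61e-06). Sox2 read 8.18, 8.23 and 8.10 in wildtype and 7.41, 7.48 and 7.65 in Sufu KO, and 8.06, 7.99 and 8.16 in the tumours. Airn, a long noncoding RNA of the Igf2r locus, read 9.84, 9.71 and 10.0 in wildtype and 9.03, 9.15 and 9.27 in Sufu KO, and 10.06, 9.84 and 9.60 in the tumours, while Igf2r itself differed by 0.02 against wildtype (adjusted p = 0.856). Syt13, a synaptotagmin, was lower by 0.56 than wildtype and by 0.56 than the tumours. In these 4 genes too the tumours lay closer to wildtype than to Sufu KO, an order that the same way of picking favours.

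Replicates of Sufu KO disagreed most in few genes. The 5 tested genes with the largest SD among the Sufu KO arrays were Xist, Eif2s3y, Uty, Ttr and Klk1b22. Xist read 5.55, 5.62 and 11.90 and Eif2s3y, a Y-linked gene, 8.69, 8.96 and 3.99, in opposite order. None of the 4 tested sex-linked genes passed in limma (adjusted p from 0.103 to 0.117, unadjusted p from 0.0333 to 0.0394), and without Sufu KO replicate 3 all 4 did. Klk1b22, a kallikrein, read 8.98, 8.21 and 8.73 in wildtype and 8.38, 7.46 and 4.80 in Sufu KO, and the tumours 5.11, 4.60 and 5.14, so Sufu KO replicate 3 lay among the tumours and the other 2 nearer to wildtype. For most genes the spread was small: the median SD was 0.0932 among Sufu KO arrays and 0.0789 among wildtype arrays.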

How the data were processed

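Total RNA from 9 tissue samples was measured on Affymetrix Mouse Gene 1.0 ST arrays, per the labels. The authors deposited log2 values for 35556 probe sets; how they were normalized is not given in the sources used here, and the array gives no read depth, so the number of arrays limits the precision. Genes were named from 21789 probe sets annotated to exactly 1 gene (1621 had several and 12146 were not listed), and 21698 of these matched RefSeq by identifier. For 999 genes with several probe sets the one with the highest mean over the 9 arrays was kept. Testing was limited to genes brighter, on 3 or more arrays, than the 25th percentile of all probe sets there. The limma test (version 3.58.1, R 4.3.3; group means over all 9 arrays, moderated variances, Benjamini-Hochberg over 16323 genes, threshold 0.05) compared the groups and was tested on simulated data. No array was dropped or imputed.

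The members, the 44 gene lists (747 genes, of which 696 had a probe set and 685 were tested) and the 11 pairs were chosen with earlier results of these data known. Named genes are those fixed by name (1 of these is not reported here), the 15 highest and 15 lowest called genes without overlapping arrays, the 3 smallest p-values of each list, the pair members, the 5 genes farthest above and below both other groups, and the 5 with the largest SD in Sufu KO. Further list members, and genes set beside these, were chosen after their values were seen. The 4 printed promoters belong to the mitosis genes with the smallest p whose windows were kept. Windows that overlap the annotated span of their own gene, and those on 1 chromosome, were left out. The labels do not say that same-numbered arrays of the 2 groups are paired, so the numbers were not taken as pairs. In their deviations from group means these arrays correlated at 0.09, 0.085 and 0.352. Differently numbered arrays ran from -0.35 to 0.28. So few correlations cannot decide whether the samples were paired. Alternatives were other filters, normalizations, priors and samples, a sex covariate and a replicate block.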

Additional observations from a re-analysis of the deposited data

Results flagged for a closer look

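Named Hedgehog and progenitor genes differed between the mutant tissues when the tumours were tested directly against Sufu KO (limma, Benjamini-Hochberg adjusted). Of feedback and receptor genes, Gli1 was 1.931 log2 units higher in the tumours (adjusted p = 1.81e-06), Hhip 1.860 (adjusted p = 4.80e-06), Ptch1 1.083 (adjusted p = 2.82e-06) and Smo 0.680 (adjusted p = 2.12e-04). Of factors and regulators, Sufu was 1.815 higher, Gli2 0.539, Mycn 1.082 and Atoh1 1.914 (adjusted p = 3.42e-07, 0.00779, 2.79e-05 and 2.97e-05). Of division genes, Ccnd1 was 1.320 higher, Ccnd2 0.323 and Mki67 0.932 (adjusted p = 2.06e-05, 0.018 and 3.43e-04). For Gli1, Hhip and Ptch1 the tumours stood above wildtype and Sufu KO at or below it. For Ccnd2 nearly the whole rise was already present in Sufu KO.

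Signal also appeared outside the genes compared. Of 8250 tested probe sets with no listed gene, 32 were called at least 1 log2 unit higher in Sufu KO and 31 at least 1 lower. Of 1079 tested probe sets annotated to several genes, 20 were at least 1 log2 unit higher and 9 lower. These probe sets have no single gene name here and enter none of the counts above.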

How the results depend on the processing

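The 4 counts over all genes kept within 1.5 times their value under every alternative read here. The high-Xist arrays alone, which hold 1 Sufu KO array, are left out of these ranges. Genes called higher ran from 1533 to 2227 against 2122, and genes called lower from 1526 to 2252 against 2028. At 1 log2 unit or more the counts ran from 174 to 226 higher against 186 and from 26 to 49 lower against 36. Leaving out single arrays gave 1533 to 2009 higher and 1526 to 1924 lower, and 174 to 203 and 26 to 49 at 1 log2 unit. Of the 222 genes called at 1 log2 unit, 215 to 222 kept their call and direction, the 215 under a filter at the array median, which tested fewer genes. No gene called in the comparison as reported was called with the other sign under an alternative. The fit with a replicate block gave 1979 higher and 2010 lower and 186 and 36 at 1 log2 unit. Since the labels do not state that the numbers pair the samples, this is read only as a property of the fit. With each array centred on its median the split was 1848 higher and 2252 lower. A fit with array weights, chosen after seeing the data, could not be fitted to convergence and was not used. Signal limits the dimmest genes, whose differences an array understates.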
